A study of Mus musculus with 6 samples.

Results

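Cdsn, which encodes corneodesmosin, was followed together with the kallikrein genes Klk5, Klk6, Klk7, Klk8, Klk10, Klk11 and Klk13 and the protease inhibitor genes Spink5 and Spink12 in RNA of the mouse handpad, the plate of the developing forepaw. These 10 genes, of 34989 genes with a transcript in the tables, were chosen by their measured estimated counts in the same knockout and wild-type libraries that are described here. Their differences between the groups are therefore given as a description and are not used as support for one another. Polyadenylated RNA was sequenced from 3 wild-type handpad samples (WT in the labels) and 3 Grhl3 knockout samples, all from embryos at stage E14.5 of the C57BL/6 strain. The study concerns the surface epithelium during the separation of the digits, and Grhl3 encodes a transcription factor of that epithelium. The labels name no transgene, Cre driver or treatment, and they do not say which part of Grhl3 was removed. They also do not say whether the replicates were separate embryos. The p-values therefore compare the group difference only with the spread among these samples. Wild-type replicate 1 differed from replicates 2 and 3 in Y-linked expression, as given below, so it was not the same embryo material. Among the other samples of a group the spread may be technical.

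Corneodesmosomes are the junctions that hold together the dead, flattened cells of the outermost epidermis. They are desmosomes to which corneodesmosin, a glycine- and serine-rich adhesive protein, has been added on the outside, next to the cadherins desmoglein 1 and desmocollin 1. Kallikrein-related peptidases are secreted serine proteases made as inactive precursors. The trypsin-like KLK5 activates itself and other family members, among them the chymotrypsin-like KLK7, and both cut corneodesmosin so that surface cells can be shed. LEKTI, the product of Spink5, is a chain of Kazal-type inhibitor domains that blocks KLK5 and KLK7, and its loss causes Netherton syndrome in humans. Before cornification the embryonic epidermis is covered by the periderm, a transient layer of flat cells.

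The libraries held 38052692 to 56037639 estimated counts. Grhl3 measured 14.3, 45.7 and 18.5 CPM (counts scaled to a common library size, with sizes adjusted by the TMM method) in wild-type replicates 1, 2 and 3 and 3.11, 2.86 and 2.95 CPM in the 3 knockout replicates, lower in each of them than in any wild-type library. Wild-type replicate 1 stood apart, with 8.90% of its counts in ribosomal protein genes against 5.61% to 7.74% in the others. Y-linked genes summed to 290 and 341 CPM in wild-type replicates 2 and 3 and to 3.38 to 5.36 CPM in the other 4 libraries, so no knockout library had Y-linked expression, and genotype and embryo sex cannot be told apart for those wild-type libraries. Limb mesenchyme markers such as Hoxd13 and Prrx1 summed to 5270 to 7600 CPM with overlapping groups. The 15 pan-epithelial markers, among them Krt5, Krt14 and Cdh1, summed to 1803, 2917 and 1836 CPM in wild-type and to 4073, 3075 and 3972 CPM in the knockout libraries. That sum was higher in every knockout library, and Krt5, Krt14 and Krt15 made up 57.8% to 73.4% of it. Single markers ran from -0.45 (Rab25) to 1.26 (Krt14) in log2 fold change with a median of 0.38, and 3 of the 15 were negative. In 4 of them every knockout library was higher than any wild-type library, against 6.77% of all tested genes. None of the 15 was called by edgeR. At an unadjusted p under 0.05 (edgeR) 6 were higher and 0 lower, against 3.81% and 3.41% of all tested genes. DESeq2 called 5, all higher, against 1.25% of all tested genes called higher.

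Of the 10 genes, 9 were higher in every knockout library than in any wild-type library, and Klk13 was the exception. That pattern was found in 6.77% of all tested genes. In the comparison across 16938 genes (edgeR quasi-likelihood test, called at a false discovery rate, FDR, under 0.05), 9 of the 10 genes had enough counts to be tested, all but Klk6, and 4 were called higher: Cdsn, Klk5, Klk7 and Spink12. Of all tested genes 0.348% were called higher. Since the genes were selected on this contrast, nothing is read from either count. Klk5 was just inside the threshold (FDR 0.0419) and Spink5 just outside it (FDR 0.0505). Without wild-type replicate 1 the number called became 8, with 136 of all 17234 tested genes called higher. Without knockout replicate 2 it became 7, with 60 of all 17220 called higher. It was 3 without wild-type replicate 3 (9 of all 17158 called higher), knockout replicate 1 (16 of 17190) or knockout replicate 3 (20 of 17187). Cdsn, Klk7 and Spink12 were called in each of the 6 fits with a library left out, and without wild-type replicate 1 their log2 fold changes were 6.69, 6.09 and 5.19. DESeq2 and edgeR's likelihood ratio test each called 8 genes higher, adding Klk8, Klk10, Klk11 and Spink5, against 1.25% and 1.09% of all tested genes called higher by these tests. In whole tissue, more cells of a type and more RNA per cell cannot be told apart.

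**Figure D1:**
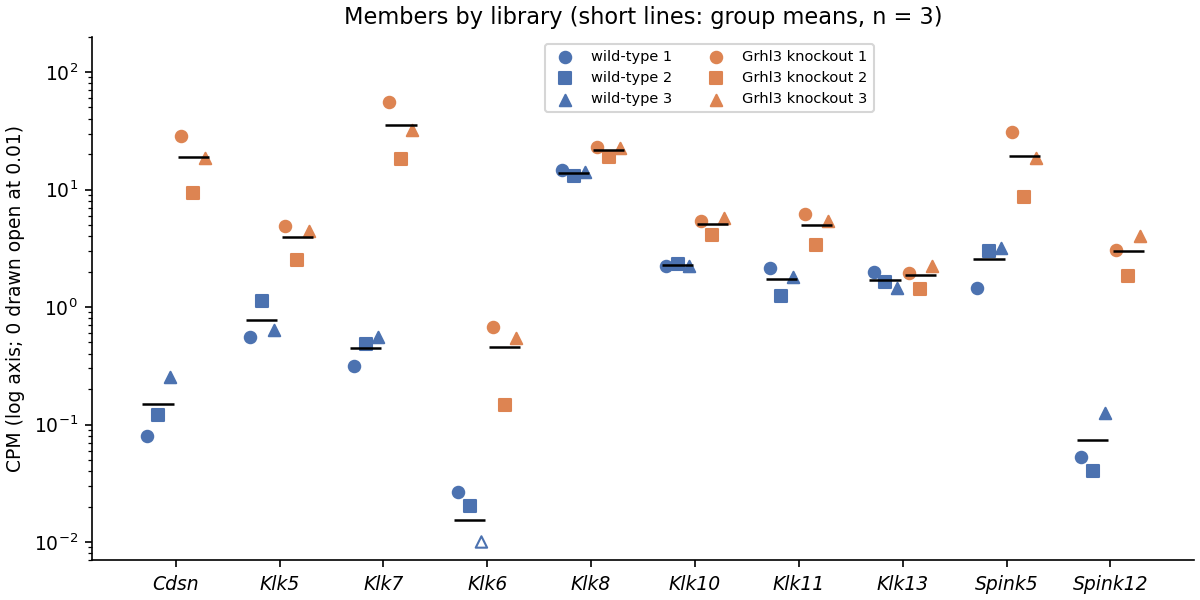
Each point is the level of a gene in 1 library in CPM on a log axis, with wild-type libraries in blue and Grhl3 knockout libraries in orange, and short lines are group means of 3 libraries. Cdsn, Klk7 and Spink12 lie under 1 CPM in wild-type and above 1 CPM in the knockout, the Klk8 groups lie close together at 13.02 to 14.8 and 18.9 to 23.1 CPM, and the Klk13 points overlap.

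The promoters of 3 of the genes are shown because these genes span the range of the data. Cdsn and Klk7 had the largest differences. Klk8 had the highest level per length, summed over its transcripts, in every library, with one of the smallest differences. Each window runs from 250 bases before to 50 bases after the annotated start on the plus strand, 5′ to 3′, from RefSeq on the build GRCm38.p6 (mm10), with CG dinucleotides in capitals. The Cdsn window is chr17:35551878-35552177, the Klk7 window chr7:43811044-43811343 and the Klk8 window chr7:43797327-43797626.
Cdsn: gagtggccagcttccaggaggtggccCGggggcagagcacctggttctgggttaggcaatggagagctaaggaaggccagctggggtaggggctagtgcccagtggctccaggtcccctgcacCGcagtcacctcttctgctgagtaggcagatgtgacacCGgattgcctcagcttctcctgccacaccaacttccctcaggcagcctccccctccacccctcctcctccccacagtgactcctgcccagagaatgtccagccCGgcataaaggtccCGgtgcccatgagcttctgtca
Klk7: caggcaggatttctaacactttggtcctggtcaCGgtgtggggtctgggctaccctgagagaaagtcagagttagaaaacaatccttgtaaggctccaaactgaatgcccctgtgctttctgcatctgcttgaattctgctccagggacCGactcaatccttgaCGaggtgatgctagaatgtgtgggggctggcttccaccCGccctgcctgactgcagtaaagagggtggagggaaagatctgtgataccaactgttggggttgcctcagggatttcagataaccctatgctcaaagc
Klk8: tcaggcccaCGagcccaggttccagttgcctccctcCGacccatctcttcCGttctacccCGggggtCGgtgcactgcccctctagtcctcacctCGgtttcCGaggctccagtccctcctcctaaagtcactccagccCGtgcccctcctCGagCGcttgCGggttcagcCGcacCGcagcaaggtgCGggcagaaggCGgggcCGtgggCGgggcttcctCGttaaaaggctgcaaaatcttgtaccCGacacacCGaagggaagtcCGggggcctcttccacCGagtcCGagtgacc

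These windows differ in base composition. The Klk8 window holds 23 CG dinucleotides and is 65.3% G or C, and 78.5% of the 32851 RefSeq promoter windows of 300 bases hold fewer CG. The Cdsn window holds 5 CG, its second annotated window 8, and the Klk7 window 4, against a median of 7 over all windows. The windows of the other kallikreins hold 5 in Klk5, 2 in Klk10, 2 in Klk13, 4 and 2 in the pair of Klk11 windows, and 8 and 3 in the pair of Klk6 windows. The Grainyhead palindrome AACCGGTT, the looser core AACNNGTT, which includes the palindrome, and the AP-1 motif TGANTCA were searched on both strands. None of the 3 occurred in any of the 11 windows of Cdsn and the kallikreins, against 0.146%, 4.20% and 7.81% of all windows. Such a result says only that these letters are not in these windows.

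Cdsn was nearly absent from wild-type handpads and was among the more abundant of the 10 transcripts in the knockout. The gene (ENSMUSG00000039518.7) lies on chromosome 17 at 35552128 to 35557180 (mm10, as for all positions here), and 1 transcript of 2678 bases carries all of its counts. The wild-type libraries held 3, 6 and 10 counts and the knockout libraries 1404, 447 and 1018. These are 0.0792, 0.120 and 0.253 CPM against 28.5, 9.42 and 18.5 CPM. All 3 knockout libraries lie far above all wild-type libraries, with knockout replicate 1 about 3.03 times as high as knockout replicate 2. The means were 0.151 ± 0.0908 and 18.8 ± 9.54 CPM (SD, n = 3 each), and the fitted log2 fold change was 6.95 (SE 0.54). From the raw counts, 19 against 2869, the ratio per sequenced count was 124, with a 95% counting interval of 79.3 to 206 that covers counting error only.

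The neighbours of Cdsn were measured at low levels. Psors1c2, upstream, had a log2 fold change of 0.10 (adjusted p = 0.994, edgeR). The model 2300002M23Rik, downstream, had 92 counts over the 6 libraries and a log2 fold change of 1.92 (adjusted p = 0.470, edgeR). Neither passed the test.

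Klk7, the chymotrypsin-like kallikrein of desquamation, had the second largest fold change of the 10 genes and lies with the other kallikreins on chromosome 7. The gene (ENSMUSG00000030713.6) lies at 43811294 to 43816359. Its counts were 12, 24 and 22 in wild-type and 2718, 867 and 1767 in the knockout, or 0.317, 0.481 and 0.557 CPM against 55.2, 18.3 and 32.2 CPM. The lowest knockout library lies above the highest wild-type library, and the log2 fold change was 6.27 (SE 0.47). All counts fell on 1 transcript of 1895 bases.

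Klk5 (43841971 to 43851181), which starts the kallikrein cascade in epidermis, was higher in the knockout by a smaller factor. It measured 0.555, 1.123 and 0.633 CPM in wild-type and 4.85, 2.51 and 4.42 CPM in the knockout, a 5.10-fold difference of the means and a log2 fold change of 2.33 (SE 0.36). The groups do not overlap, although wild-type replicate 2 was about 2.03 times as high as the lowest wild-type library. The Klk5 call was lost when wild-type replicate 3 was left out (adjusted p = 0.263, edgeR), likewise the knockout replicates 1 (0.207) and 3 (0.158). It was also lost with limma-voom (adjusted p = 0.0725) and when edgeR was given a Y-linked term (0.0722). The log2 fold change in these fits was 2.15 to 2.24 with a library left out, 2.32 with limma-voom and 2.82 with the Y-linked term.

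Klk8 (43797577 to 43803826), or neuropsin, a trypsin-like protease of upper epidermis and brain, had the highest summed TPM of the kallikreins in all 6 libraries. On the TPM scale, which corrects for transcript length, it measured 39.0, 26.9 and 40.7 in wild-type and 59.0, 47.8 and 50.8 in the knockout. Of this, a retained-intron transcript of 561 bases held 20.4, 9.80 and 15.7 TPM in wild-type and 24.8, 20.6 and 19.6 in the knockout. In knockout replicate 1 the Klk8 coding transcripts held 16.1 and 18.1 TPM, against 38.5 for Klk7. In CPM Klk7 was above Klk8 in knockout replicates 1 (55.2) and 3 (32.2). Klk8 itself was at 14.8, 13.02 and 14.04 CPM against 23.1, 18.9 and 22.6, so the knockout libraries were higher, by 1.54-fold in the means. Its log2 fold change of 0.62 (SE 0.12) became -0.21 when libraries were scaled on the pan-epithelial markers. That scaling put the median of all genes at -0.82, against -0.0045 with TMM, and follows the summed counts of the list, of which the 3 keratins named above made up most. Relative to 1000 CPM of pan-epithelial markers, Klk8 measured 8.22, 4.46 and 7.65 in wild-type and 5.68, 6.14 and 5.68 in the knockout, and the groups overlap. Of the 31-base words of the Klk8 transcripts, 22.9% also occur in the antisense gene 2310002F09Rik, which shares 382 bases with them and is not among the genes of the tables. That gene also runs opposite Klk10, Klk11 and Klk13 without sharing a word with them. The library kit is stranded per the labels, but the strand setting of the quantification is not given in the sources used here, so reads of the antisense gene may be counted in Klk8.

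Klk10 (43781035 to 43785410) and Klk11 (43774604 to 43779263) were higher in each knockout library without being called. Klk10 measured 2.22, 2.31 and 2.25 CPM in wild-type, within a factor of 1.04, and 5.42, 4.09 and 5.70 CPM in the knockout. Klk11 measured 2.17, 1.24 and 1.80 CPM in wild-type and 6.23, 3.39 and 5.39 CPM in the knockout. Their log2 fold changes were 1.16 (SE 0.19) and 1.53 (SE 0.29), and the groups of each gene do not overlap. Relative to the pan-epithelial markers, Klk10 was 1.23, 0.791 and 1.23 per 1000 CPM in wild-type and 1.33, 1.33 and 1.43 in the knockout, closer together than in CPM. Klk11 on that scale was 1.202, 0.427 and 0.979 in wild-type and 1.53, 1.10 and 1.36 in the knockout, and the groups overlap. With libraries scaled on these markers the log2 fold changes became 0.34 for Klk10 and 0.63 for Klk11. The Klk11 counts were divided unevenly between transcripts: the longest transcript, of 1312 bases, took 95.7%, 54.8% and 71.3% of them in wild-type and 61.3%, 21.2% and 81.3% in the knockout, with no order by group.

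Klk13 (43712567 to 43727534) did not separate the groups. Its levels were 1.98, 1.65 and 1.44 CPM in wild-type and 1.95, 1.41 and 2.24 CPM in the knockout, with a log2 fold change of 0.15 (SE 0.25) that became -0.69 with scaling on the pan-epithelial markers, -0.08 with a term for Y-linked expression and -0.01 without knockout replicate 3. Per 1000 CPM of pan-epithelial markers it ranged from 0.564 to 1.10 in wild-type and from 0.459 to 0.564 in the knockout.

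Klk6 (43824499 to 43832030), a trypsin-like kallikrein best known from the nervous system, was close to the detection limit. It had 1, 1 and 0 counts in wild-type and 33, 7 and 30 counts in the knockout. All knockout libraries were above all wild-type libraries. The summed counts, 2 against 70, gave a ratio of 28.8 with a counting interval of 7.67 to 242. The gene did not pass the filter on low counts with all 6 libraries. Without that filter the log2 fold change was 4.65 (adjusted p = 0.0472, edgeR), and without knockout replicate 2 it was 5.05 (adjusted p = 0.0300, edgeR). The gene was also tested, but not called, without wild-type replicate 1 (adjusted p = 0.0798, edgeR), 2 (0.244) or 3 (0.394). The log2 fold changes in these fits were 5.07, 4.87 and 4.17.

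The kallikrein transcripts as a whole differed between the groups in amount and in makeup. The summed TPM of the 26 Klk genes in the tables was 46.5, 36.1 and 50.1 in wild-type and 122, 74.2 and 92.6 in the knockout, higher in each knockout library. Klk8, with its retained-intron transcript counted, supplied 83.9%, 74.5% and 81.3% of that sum in wild-type and 48.4%, 64.4% and 54.8% in the knockout. Klk7 supplied 0.412%, 1.03% and 0.852% in wild-type and 31.5%, 16.8% and 22.6% in the knockout, so the groups do not overlap for either share. The shares of Klk10 and Klk11 stayed between 4.43% and 7.69% in every library.

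**Figure D2:**
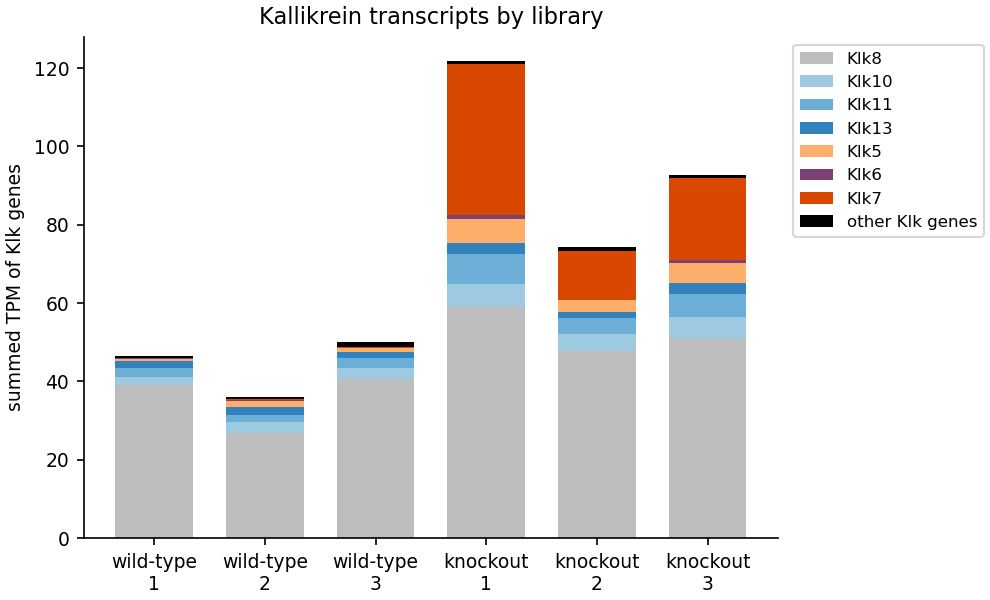
Bars are the summed TPM of Klk genes in each library, stacked by gene from 0. Klk8 (grey) makes up most of the 36.1 to 50.1 TPM of the wild-type bars, and Klk7 (dark orange) adds 12.4 to 38.5 TPM to the knockout bars.

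By TPM the order of the 10 genes differed between the groups. In wild-type the order of the means was Klk8 (35.5), Klk10 (2.51), Klk11 (2.21), Klk13 (1.88), Klk5 (1.02), Spink5 (0.635), Klk7 (0.330), Spink12 (0.135), Cdsn (0.0728) and Klk6 (0.0217). The neighbours Klk10 and Klk11 differed by less than the larger of their SDs (0.391 and 0.525), as did Klk11 and Klk13 (SD 0.374 for Klk13), Klk5 and Spink5 (SD 0.504 and 0.291) and Spink12 and Cdsn (SD 0.0973 and 0.0485), while Klk8 stood far above the next gene. In the knockout the order was Klk8 (52.5), Klk7 (23.9), Cdsn (8.34), Klk11 (5.90), Klk10 (5.30), Spink12 (5.03), Klk5 (4.78), Spink5 (4.45), Klk13 (2.31) and Klk6 (0.645). From Cdsn to Klk13 neighbouring means differed by less than the larger of their SDs, which ran from 0.796 to 4.41. Klk7 thus stood in the seventh place in wild-type and in the second in the knockout, and Cdsn in the ninth and the third.

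The 7 kallikreins lie in 1 cluster on chromosome 7, all on the plus strand, and the size of the difference varied along it without a smooth order. From Klk13, whose start is at 43712567, to Klk5, whose start is 129 kb farther along, the genes run Klk13, Klk12, Klk11, Klk10, Klk9, Klk8, Klk7, Klk6 and Klk5. Klk8, at a log2 fold change of 0.62, starts 85.0 kb from the Klk13 start, and the next gene, Klk7, at 6.27, starts 98.7 kb from it. Klk9, between Klk10 and Klk8, had 120 counts in all, a log2 fold change of 0.33 and an adjusted p of 0.972 (edgeR). Klk12 had 12 counts, and the flanking genes Klk14 and Klk4 had 21 and 14, too few to be tested. Of the 19 kallikreins outside the 10 genes, 1 could be tested, and neither it nor Spink10 (log2 fold change -0.05), the 1 tested gene among 11 other Spink genes, was called by edgeR, DESeq2, limma-voom or the likelihood ratio test, and neither had an unadjusted p under 0.05. The proteins of the 7 kallikreins, read from the annotated coding transcripts, are 37.5% to 49.8% identical in pairs, and no 31-base word of Klk5, Klk6, Klk7, Klk10 or Klk13 occurs in another annotated gene.

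**Figure D3:**
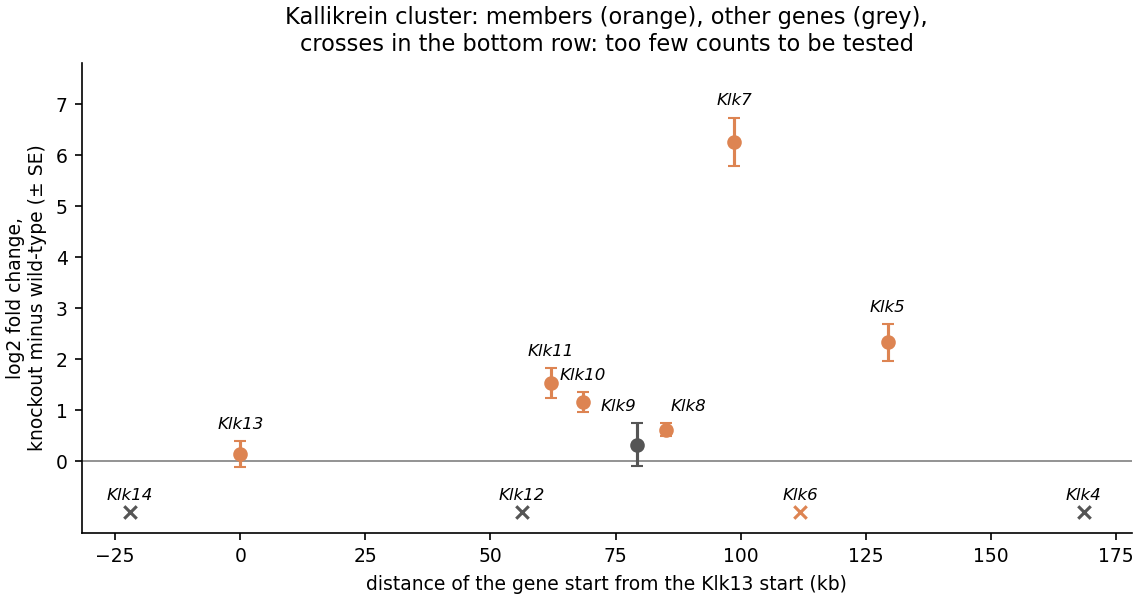
The log2 fold change of knockout minus wild-type (points with SE) is plotted against the distance of each gene start from the Klk13 start in kb. Klk7 at 6.27 and Klk5 at 2.33 stand above Klk11, Klk10, Klk9, Klk8 and Klk13, which lie between 0.15 and 1.53, and crosses mark genes with too few counts for a test.

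Both Spink inhibitors were higher in the knockout, and both lie on chromosome 18 on the plus strand, Spink5 at 43963235 to 44022501 and Spink12 at 44104407 to 44108543. Spink5 held 55, 150 and 126 counts in wild-type and 1527, 409 and 1016 in the knockout. In CPM these are 1.45, 3.01 and 3.19 against 30.99, 8.62 and 18.5. The groups do not overlap, but knockout replicate 1 was 3.60 times as high as knockout replicate 2, the widest spread among the tested genes of the 10. The log2 fold change was 2.92 (SE 0.47). The gene passed the threshold without wild-type replicate 1 (adjusted p = 0.0423, edgeR), without knockout replicate 2 (0.0131) and with no filter (0.0106). It also passed with scaling on the pan-epithelial markers, at a log2 fold change of 2.08 (adjusted p = 3.12e-06, edgeR). It did not pass in the main fit (adjusted p = 0.0505, edgeR), with the Y-linked term (0.0676) or with the replicate number as a block (0.151). Nor did it pass without wild-type replicates 2 (adjusted p = 0.1505, edgeR) or 3 (0.258) or knockout replicates 1 (0.1755) or 3 (0.147). With limma-voom the adjusted p was 0.159.

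Spink12, a short gene whose protein has 105 residues against the 1017 of LEKTI, had 2, 2 and 5 counts in wild-type and 151, 87 and 221 in the knockout. All knockout libraries were above all wild-type libraries. The ratio of summed counts, 9 against 459, was 41.9 with a counting interval of 21.9 to 92.3, and the fitted log2 fold change was 5.33 (SE 0.49). In CPM the knockout libraries measured 3.06, 1.83 and 4.02, with the highest value in replicate 3. Of the genes between Spink5 and Spink12, Spink14 had no counts, and Spink6 had 1 count in wild-type and 14 in the knockout, a ratio of 11.5 with a counting interval of 1.75 to 487.

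Protease and inhibitor transcripts were set against each other as ratios of TPM within a library. Klk7 over Spink5 was 0.640, 0.475 and 0.520 in wild-type and 5.28, 6.28 and 5.14 in the knockout, with means of 0.545 ± 0.0851 and 5.57 ± 0.623 (SD, n = 3 each). This ratio was similar in the 3 knockout libraries, although Klk7 itself differed 3.02-fold between them. Klk5 over Spink5 was 1.996, 2.01 and 1.07 in wild-type and 0.837, 1.56 and 1.27 in the knockout, and here the groups overlap. Klk5 and Klk7 together over Spink5 gave 1.59 to 2.64 in wild-type and 6.11 to 7.84 in the knockout. Spink12 over Spink5 was 0.101 to 0.302 in wild-type and 0.739 to 1.61 in the knockout. These ratios are made from the levels that selected the genes and from RNA of mixed tissue, so no test was made, and they do not measure protease activity.

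Substrate over protease, taken as Cdsn over Klk7, differed less between the groups than Klk7 over Spink5 did. Cdsn over Klk7 was 0.164, 0.163 and 0.296 in wild-type, where Cdsn rests on 3 to 10 counts, and 0.337, 0.337 and 0.376 in the knockout. These groups do not overlap, with means of 0.208 and 0.350. Against the older partners of the junction the ratio of corneodesmosin was far from constant. Cdsn over Dsg1a was 0.00308 to 0.00896 in wild-type and 0.514 to 0.924 in the knockout, and Cdsn over Dsc1 was 0.0120 to 0.0302 and 2.26 to 3.69.

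**Figure D4:**
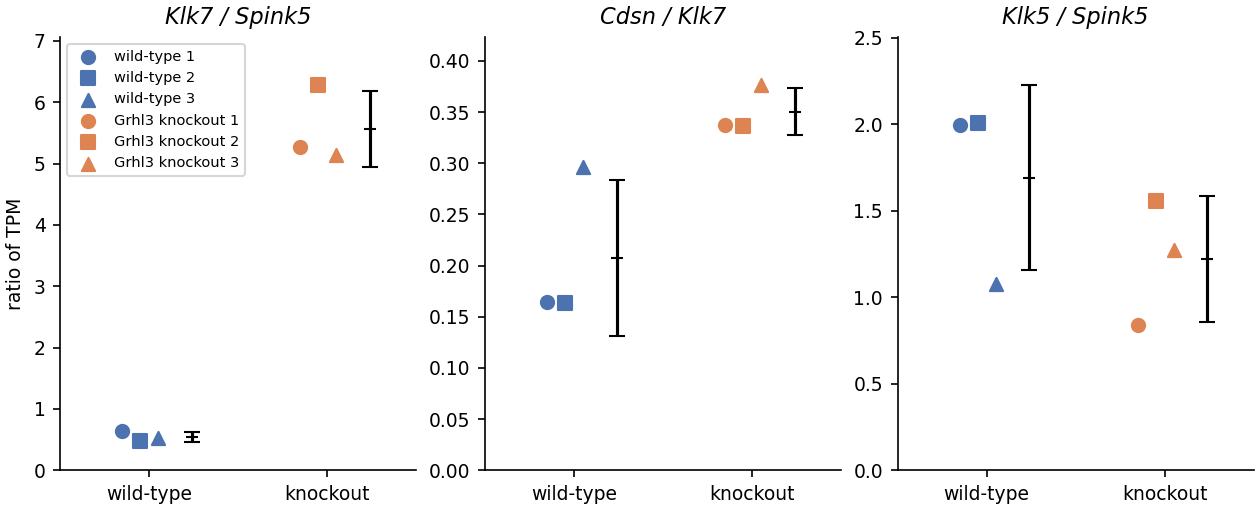
Points are ratios of TPM in each library for 3 pairs of genes, with the mean and SD (n = 3) of each group drawn beside them on linear axes from 0. Klk7 over Spink5 is 0.475 to 0.640 in wild-type and 5.14 to 6.28 in the knockout, whereas the groups overlap for Klk5 over Spink5.

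Among the knockout libraries, replicate 2 was the lowest for all 10 genes, against 30.5% of all tested genes and 48 of the 59 genes called higher. The ratio of replicate 1 to replicate 2 was 3.03 for Cdsn, 3.02 for Klk7, 3.60 for Spink5, 1.94 for Klk5, 1.67 for Spink12 and 1.23 for Klk8. The summed periderm markers were also lowest in that replicate (1467, 781 and 1162 CPM), as were the pan-epithelial markers and the suprabasal and cornified markers (1176, 560 and 1236 CPM). The liver and yolk sac markers Alb, Afp, Apoa1 and Ttr summed to 32.0, 74.4 and 5.31 CPM in the knockout libraries and to 2.81 to 3.59 CPM in wild-type, with the highest value in knockout replicate 2. The part of these markers in the results was not tested.

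Markers of the surface layers gave differing values beside the 10 genes. Of the 10 periderm markers 7 were called higher (edgeR), against 0.348% of all tested genes, with a median log2 fold change of 1.74 against -0.0045 over all genes. Krt8 (2.99) and Krt17 (3.31) were called. Krt4 was lower in every knockout library, with a log2 fold change of -1.75, without being called (adjusted p = 0.0785, edgeR). DESeq2 called 8 of the periderm markers higher and 1, Krt4, lower, against 212 and 87 of all 16938 tested genes. The periderm list summed to 292, 435 and 290 CPM in wild-type, below each knockout value. Of the 13 tested suprabasal and cornified markers edgeR called 0, while 4 were higher and 2 lower at an unadjusted p under 0.05 (3.81% and 3.41% of all tested genes), and DESeq2 called 1 higher and 1 lower. Their sum was 712, 1167 and 782 CPM in wild-type and overlapped with the knockout, and Flg, which encodes filaggrin of the cornified layer, was at 0.106 to 0.281 CPM in all 6 libraries. The part of the periderm in the levels of the 10 genes was not tested. Set against the pan-epithelial markers, Cdsn was 0.0413 to 0.138 per 1000 CPM in wild-type and 3.06 to 6.996 in the knockout. Klk7 was 0.165 to 0.303 and 5.94 to 13.5, and Spink5 0.806 to 1.74 and 2.80 to 7.61. These 3 did not overlap on that scale, nor did Klk5, Klk6, Klk10 and Spink12. Klk8 and Klk11 overlapped, and the Klk13 groups met at 0.564. The share of all tested genes without overlap on that scale was not computed.

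Of the 16 desmosome genes 15 were tested, with a median log2 fold change of 0.50. Only 1, Dsg4, was called higher (edgeR), against 0.348% of all tested genes. At an unadjusted p under 0.05 (edgeR) 6 genes were higher, against 3.81% of all tested genes. Dsg4, a desmoglein of hair and differentiated layers, measured 0.0264, 0.0602 and 0.0253 CPM in wild-type and 0.609, 0.400 and 0.691 CPM in the knockout. The groups do not overlap, and on 5 and 87 counts the log2 fold change was 3.78 with SE 0.50 (edgeR, adjusted p = 0.0222). That call was lost when wild-type replicate 2 was left out (adjusted p = 0.0640, edgeR), likewise wild-type replicate 3 (0.184) and the knockout replicates 1 (0.128) and 3 (0.106), and with the Y-linked term (0.0956). Dsc2 (log2 fold change 1.33, adjusted p = 0.129, edgeR) and Dsg3 (2.10, adjusted p = 0.220, edgeR) did not pass, although each was higher in every knockout library. Dsg1a and Dsc1, the partners of corneodesmosin, had log2 fold changes of -0.0031 (SE 0.35) and -0.15 (SE 0.51) and overlapping groups.

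Of 23 tested genes for other epidermal proteases and their inhibitors, edgeR called 0 at the FDR threshold, while 9 had an unadjusted p under 0.05, all of them higher, against 3.81% of all tested genes, and DESeq2 called 5, all higher, against 1.25%. St14, which encodes matriptase, a membrane protease that can activate kallikrein precursors, measured 12.3, 21.1 and 16.1 CPM in wild-type and 40.8, 33.2 and 34.6 CPM in the knockout. Spint1, which encodes the matriptase inhibitor HAI-1, measured 10.5, 16.8 and 12.7 against 30.9, 26.0 and 26.2 CPM. For both the groups do not overlap, and the log2 fold changes were 1.13 (SE 0.19) and 1.05 (SE 0.18), each at adjusted p = 0.0590 (edgeR). Cst6, which encodes cystatin M/E, an inhibitor of cysteine proteases, differed by 3.14 on the log2 scale with SE 0.54 (edgeR, adjusted p = 0.0674), with 0.886 to 1.11 CPM in wild-type and 2.76 to 14.7 CPM in the knockout. The median log2 fold change was 0.18 over the 13 proteases and 0.59 over the 10 inhibitors.

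Of 11 listed receptors and substrates of kallikreins 5 were tested, with a median log2 fold change of 0.05. Of these F2rl1 was called higher (edgeR), against 0.348% of all tested genes. F2rl1 encodes the receptor PAR2, which trypsin-like kallikreins such as KLK5 activate by cutting it. It measured 5.57, 5.42 and 4.88 CPM in wild-type and 20.2, 12.0 and 15.8 CPM in the knockout, with no overlap, and the log2 fold change was 1.60 with SE 0.20 (edgeR, adjusted p = 0.0182). The call was lost when wild-type replicate 2 was left out (adjusted p = 0.0644, edgeR), likewise wild-type replicate 3 (0.149) and the knockout replicates 1 (0.0658) and 3 (0.0759), at log2 fold changes of 1.39 to 1.61. It was also lost with the Y-linked term (log2 fold change 1.52, adjusted p = 0.0718, edgeR). F2r, which encodes the related receptor PAR1, had a log2 fold change of 0.05 (SE 0.08) and 111 to 122 CPM in all libraries. Il18, a cytokine precursor, had a log2 fold change of 0.71 (adjusted p = 0.648, edgeR), and its groups overlap.

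**Figure D5:**
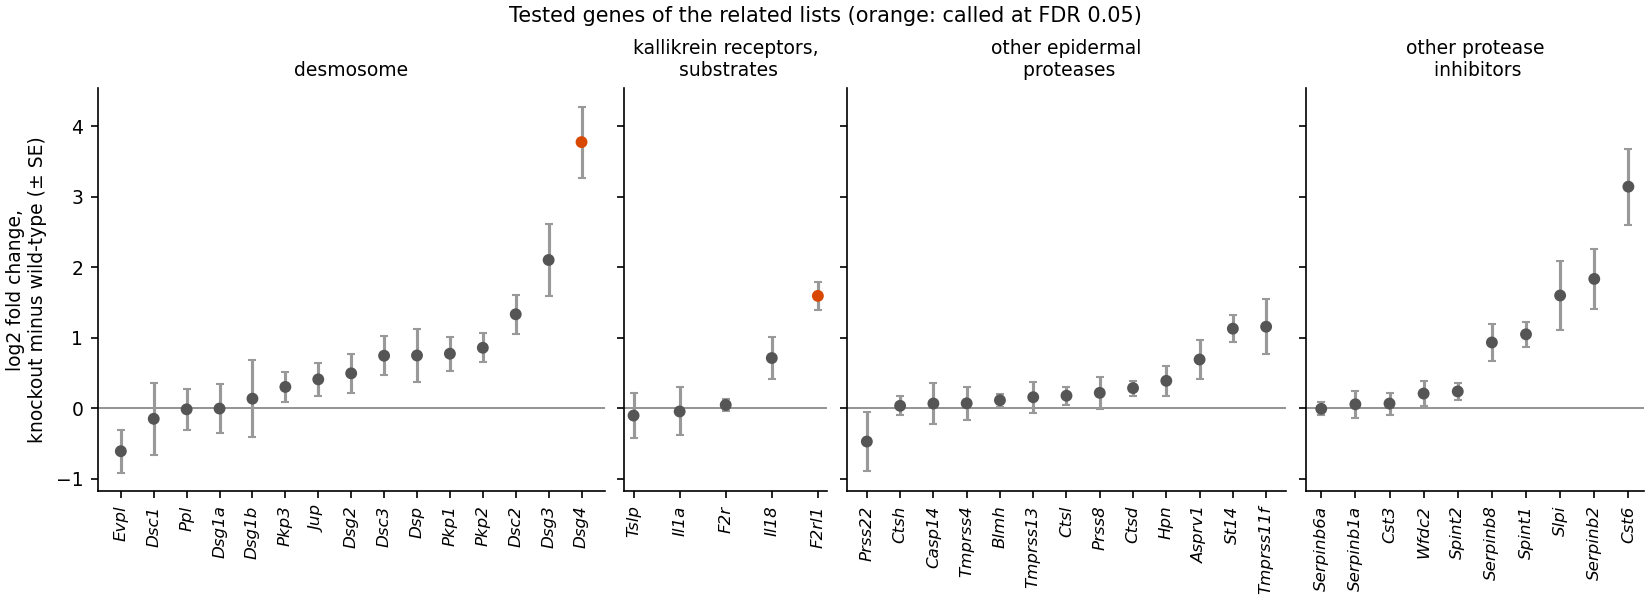
The log2 fold change of knockout minus wild-type with its SE is shown for each tested gene of 4 lists related to the 10 genes. Orange marks the 2 called genes, Dsg4 at 3.78 and F2rl1 at 1.60, and Cst6 at 3.14 is the highest of the others.

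Likeness was measured by Pearson correlation of log2 CPM over the 6 libraries, for genes whose mean log2 CPM reached 1. The 10 genes themselves and symbols that are model names were left out of this ranking. Most like Cdsn among the rest were Krt8 (r = 0.994), Tatdn2 (0.992), Wnt10a (0.991), Lypd6b (0.991) and Clca2 (0.991). Those most like Spink5 were Krt80 (0.994), Sowahc (0.994), Krt7 (0.991), Cdkn2b (0.990) and Rnf19a (0.988). Krt8 and Krt7 are keratins of simple epithelia and periderm. Likeness in shape did not mean likeness in size: Krt8 measured 6.96 to 8.70 CPM in wild-type and 48.3 to 82.0 CPM in the knockout, whereas Tatdn2 measured 46.1 to 46.3 and 49.2 to 49.7 CPM. These correlations run over the same 2 groups of libraries that separate Cdsn and Spink5, so they are descriptions.

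The authors' deposited table of the same comparison lists 941 genes and holds 8 of the 10, all but Klk6 and Klk13. Its log2 fold changes, 6.94 for Cdsn, 6.27 for Klk7, 5.33 for Spink12, 2.92 for Spink5, 2.33 for Klk5, 1.53 for Klk11, 1.16 for Klk10 and 0.62 for Klk8 in the authors' deposited table, differ from the fitted ones above by at most 0.007. The FDR values of the authors' deposited table are smaller, from 2.55e-33 for Klk7 to 0.0117 for Klk8, and that table gives a likelihood ratio score for each gene. With the likelihood ratio test on the summed counts the same 8 genes were called.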

How the data were processed

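The 6 deposited transcript tables give estimated counts and TPM for 111462 transcripts, per the file headers, and kallisto, FastQC and mm10 are named in the submitters' processing notes. The kallisto version, its transcript set and its strand setting were not given in the sources used here. The authors' deposited table gives, per gene, log2 values (fold change and CPM), a score from a likelihood ratio test, a p-value and an FDR, per the file headers. Here 110203 transcripts matched GENCODE vM21 by unversioned identifier, 107706 of these with an identical version number; the 1259 others held 0.504% to 0.566% of a library's counts. Estimated counts were summed per gene and rounded, and TPM was summed per gene.

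The groups were compared in R 4.3.3 with edgeR 4.0.16 (glmQLFit and glmQLFTest, genotype the only term, TMM scaling, filterByExpr with a minimum count of 10 and total of 15, Benjamini-Hochberg over all 16938 tested genes, called at an FDR under 0.05). Log2 CPM used a prior count of 2. The script was tested on simulated data. The members and lists were chosen with earlier results of these data known. Named were the 10 genes, called genes and up to 3 genes of smallest p of each related list, and neighbours by position. The 5 genes most like Cdsn and Spink5, outside the 10 genes and model names, were also named. Other genes named in the text were chosen after their values were seen.

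Alternatives were DESeq2 size factors, scaling on the pan-epithelial markers, no filter, a CPM of 1 in 3 libraries, DESeq2 1.42.0, limma-voom (limma 3.58.1), the likelihood ratio test, the replicate number as a block, a term for Y-linked expression above 50 CPM, and each library left out. Counting intervals are exact at 95% and cover counting error only, since reads that carry no molecular identifier may be copies of one molecule.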

Additional observations from a re-analysis of the deposited data

How the results depend on the processing

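Cdsn, Klk7 and Spink12 were called in every alternative. Over all genes the 73 calls became 11709 with scaling on the pan-epithelial markers (100 higher, 11609 lower, on an all-gene median of -0.82), 118 without a filter, 299 with DESeq2, 45 with limma-voom, 260 with the likelihood ratio test and 10 to 206 with a library left out. The 4 calls among the 10 genes became 8 without a filter, with DESeq2 and with the likelihood ratio test, 5 with pan-epithelial scaling (Spink5 added), and 3 to 8 with a library left out. The 1 desmosome call became 6 with pan-epithelial scaling (2 higher, 4 lower), 2 without a filter, 0 with a CPM of 1 in 3 libraries, 3 with DESeq2, 3 with the likelihood ratio test, 4 with the Y-linked term and 0 to 2 with a library left out. The 0 calls among other proteases and inhibitors became 8 with pan-epithelial scaling (2 higher, 6 lower), 3 without a filter, 5 with DESeq2, 4 with the likelihood ratio test, 2 with the Y-linked term and 0 to 2 with a library left out. The 1 call among receptors and substrates became 2 with pan-epithelial scaling (1 higher, 1 lower), 0 with the Y-linked term and 0 to 1 with a library left out. The other Klk and Spink genes had 0 calls throughout. The Klk8 log2 fold change turned to -0.21 with pan-epithelial scaling, and that of Klk13 to -0.69 with that scaling, to -0.084 with the Y-linked term and to between -0.0061 and 0.3074 with a library left out. The cause of these shifts was not tested.

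The labels do not say whether equal replicate numbers share a litter or day. Deviations of same-numbered libraries from their group means correlated at -0.244, -0.092 and -0.162, and those of differently numbered libraries at -0.117 to 0.22. With 3 libraries per group these values cannot settle whether the samples were paired. With the replicate number as a block, 47 genes were called in all, 3 of the 10 genes (Klk5 was lost, adjusted p = 0.146, edgeR) and 0 desmosome genes. With 3 libraries per group and levels under 1 CPM in wild-type, the fold changes of Cdsn, Klk6 and Spink12 are limited by counts of 0 to 10 per library.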
